A study of Arabidopsis thaliana with 18 samples.

Results

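On the 5 nuclear chromosomes of Arabidopsis thaliana, 510 regions carried a peak in all 5 FUL mixtures. The peaks of the 5 lists, one for each of FUL, FUL-SOC1, FUL-AG, FUL-SEP3 and FUL-AG-SEP3, were merged into intervals wherever they overlapped by at least 1 bp, which gave 8081 intervals, and those with at least 1 peak of every list were kept (6.31%). Of the remaining 7571 intervals, 4148 had a peak of 1 list, 1653 of 2, 1101 of 3 and 669 of 4. The 510 regions were therefore chosen by the presence of peaks, and their peak values describe them and test nothing.

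The peaks come from DAP-seq. Protein made in vitro is incubated with a library of naked, fragmented genomic DNA and recovered with the fragments it holds. Here the protein was made in a TnT SP6 wheat germ system. The 18 samples form 6 conditions of 3 replicates, the 5 mixtures and the input, and each received 400 ng of DNA library prepared from leaves of 2-week-old Col-0 seedlings. Only FUL carried the 3×FLAG tag, so every fragment was recovered through FUL, alone or with untagged SOC1, AG or SEP3. The replicates of a mixture were combined before peak calling, and all 5 lists were called against the same input. The DNA held no chromatin. The peaks thus give binding in vitro, with no spread between replicates.

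FUL (FRUITFULL), SOC1, AG (AGAMOUS) and SEP3 (SEPALLATA3) are MADS-domain transcription factors. Such proteins bind DNA as dimers at the CArG-box, a short palindrome with a run of A and T bases between a CC and a GG, and floral MADS-domain proteins can join as tetramers that contact a pair of boxes on looped DNA. In the plant, FUL acts with SOC1 in the shoot meristem during the floral transition and with AG and SEP proteins in the developing carpel and fruit.

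The sequences below were read from TAIR10, 5′ to 3′ on the + strand. They show the region with the highest lowest rank and a near-identical copy of it, a region without a box, and a region with 2 identical exact boxes. They also show boxes beside some of the 14 developmental genes named below. The regions at AGL24, FD, MIR156a, HEC1, HEC3 and ARF4 are not printed, and none of them held an exact box. Capitals mark boxes with at most 1 mismatch to CC, 6 A or T, and GG, or, where a window held none, the 10 bases closest to it. Stretches that reached into an untranslated region were cut to 30 bases. The SOC1 stretch that remains is intergenic, just upstream of the transcription start.
AT3G43526, intergenic, chr3:15422798-15422919: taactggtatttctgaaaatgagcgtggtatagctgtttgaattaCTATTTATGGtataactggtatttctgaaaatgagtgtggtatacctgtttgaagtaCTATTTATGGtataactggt
AT3G15602, intergenic, chr3:5285994-5286115: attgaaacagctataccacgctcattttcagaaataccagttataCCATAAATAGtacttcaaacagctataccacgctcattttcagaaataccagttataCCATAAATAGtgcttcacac
GRF5, intergenic, chr3:4606219-4606318: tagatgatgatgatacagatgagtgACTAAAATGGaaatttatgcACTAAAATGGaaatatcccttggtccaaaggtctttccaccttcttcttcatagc
AT5G11000, intergenic, no box of at most 1 mismatch, chr5:3480951-3481050: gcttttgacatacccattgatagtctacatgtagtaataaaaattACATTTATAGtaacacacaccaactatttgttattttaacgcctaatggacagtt
AT4G14900, intergenic, 2 exact boxes, chr4:8524784-8524883: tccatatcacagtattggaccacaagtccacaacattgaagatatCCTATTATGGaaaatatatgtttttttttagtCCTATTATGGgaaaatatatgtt
SOC1, at the transcription start, chr2:18811152-18811181: ttaagaaagaCCAAAAATAGcatattttga
AP3, 5′ UTR, chr3:20121208-20121237: acttgagttaCTAAAAATGGaaagtattgc
AGL18, 5′ UTR, exact box, chr3:21233610-21233639: agcaaagccaCCAAATATGGaaaattgcta
AGL19, intron, exact box, chr4:12026566-12026665: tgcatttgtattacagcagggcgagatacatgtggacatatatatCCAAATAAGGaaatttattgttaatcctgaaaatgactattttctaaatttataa
AG, intron, exact box, chr4:10386486-10386585: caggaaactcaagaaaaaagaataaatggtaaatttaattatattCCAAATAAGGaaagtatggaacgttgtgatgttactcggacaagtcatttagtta
ATC, intergenic, exact box, chr2:11771660-11771759: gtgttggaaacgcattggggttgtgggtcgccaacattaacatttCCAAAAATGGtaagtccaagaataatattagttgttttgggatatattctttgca
SAUR10, intergenic, exact box, chr2:7832476-7832575: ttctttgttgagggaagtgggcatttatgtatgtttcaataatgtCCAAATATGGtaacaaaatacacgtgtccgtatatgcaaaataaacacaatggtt
CKX1, intergenic, chr2:17311677-17311776: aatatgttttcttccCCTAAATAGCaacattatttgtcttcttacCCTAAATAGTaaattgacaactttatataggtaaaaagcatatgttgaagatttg

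The regions bound in all mixtures held CArG-boxes more often than the other intervals. In a window of 200 bp centred on the median of the summits, 140 of the 510 regions had an exact box (27.5%, 95% Wilson interval 23.8 to 31.5%), against 928 of the 7571 other intervals (12.3%). A two-sided Fisher's exact test, adjusted by Benjamini-Hochberg over 8 comparisons, gave p = 5.182e-18 at an odds ratio of 2.71. A box with at most 1 mismatch was present in 422 regions (82.7%) against 66.2% of the other intervals (odds ratio 2.45, adjusted p = 1.777e-15 in the same exact test). The closest match had 2 mismatches in the remaining 88 regions, and none of the 510 was further from the pattern. Among 594714 adjacent genome windows of the same length, 1.23% held an exact box and 22.4% held one with at most 1 mismatch.

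The share with a box increased with the number of lists that shared an interval. Exact boxes were present in 9.91% of the intervals of 1 list, 12.8% of 2 lists, 14.9% of 3 lists, 21.2% of 4 lists and 27.5% of all 5 lists. Set against the intervals of 4 lists alone, the excess of exact boxes was 6.23 percentage points (exact test, adjusted p = 0.0421) and that of boxes with at most 1 mismatch was 7.26 points (adjusted p = 0.0104). The median A/T content of the windows lay between 65% and 65.5% in all 5 classes. Some intervals are copies of each other and are not independent. Without those that had a near-identical copy elsewhere, the exact box was present in 24.5% of 437 regions and 12.6% of 6418 other intervals (adjusted p = 2.307e-10 in the same exact test).

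**Figure D1:**
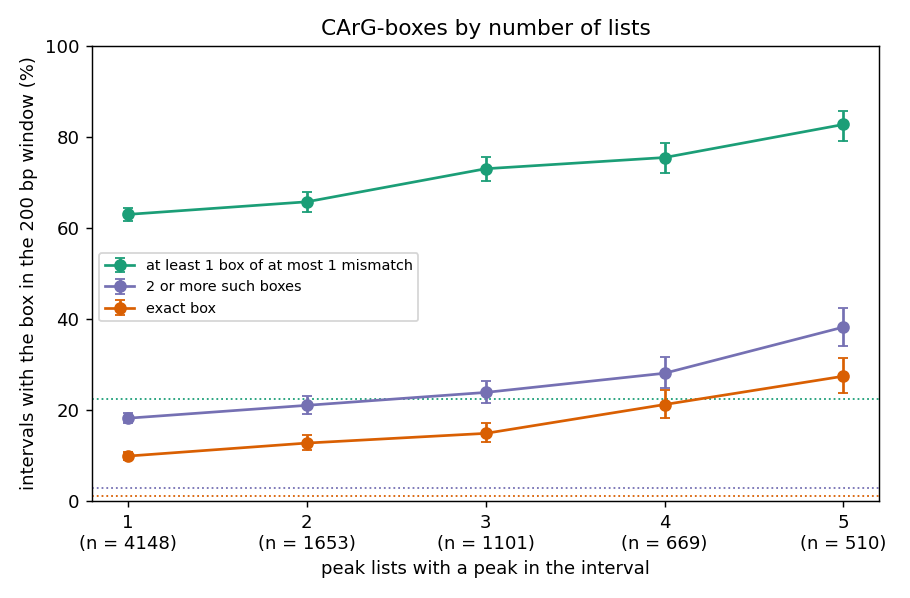
Share of intervals (%) with a CArG-box in the 200 bp window, by the number of lists with a peak (x axis, with the number of intervals). All 3 shares are highest in the intervals of all 5 lists, at 82.7%, 38.2% and 27.5%, where bars are 95% Wilson intervals (counting error over intervals only) and dotted lines give the share of genome windows of the same length, 22.4%, 2.85% and 1.23% from top to bottom.

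More than 1 box was common. Of the 510 regions, 195 (38.2%, 34.1 to 42.5%) had at least 2 non-overlapping boxes with at most 1 mismatch, against 20.5% of the other intervals and 2.85% of genome windows (adjusted p = 5.182e-18 in the same exact test, odds ratio 2.39). There were 144 regions with 2 such boxes, 40 with 3, 9 with 4 and 2 with 5. The starts of neighbouring boxes lay a median of 38 bp apart over 259 pairs, and 47 bp apart over 1857 pairs in the other intervals. In the regions of all mixtures, 55 of the 259 pairs (21.2%) were 10 to 19 bp apart and 46 were 20 to 29 bp apart, and the first of these shares was 12.9% in the other intervals. These distances are given without a test. They include the 73 regions with a near-identical copy elsewhere, so pairs in copied sequence can count several times. At AT4G14900 both exact boxes read CCTATTATGG and start 32 bp apart, and at GRF5, a growth-regulating factor that promotes cell proliferation in leaves, both boxes read ACTAAAATGG and start 20 bp apart.

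A single kind of mismatch prevailed. In 282 regions the best box had 1 mismatch. With each box turned so that the mismatch fell in its left part and positions counted from 1 at that end, the substitution was C2T in 152 of them (53.9%). The same substitution made up 32.6% of the 4081 best boxes with 1 mismatch in the other intervals. A mismatch at the outermost base was less frequent in the regions of all mixtures, 22.7% against 37.1%, and C1A, the most frequent of these, was found in 12.4% against 19.0%. The most frequent box of this kind was CTATTTTTGG, in 33 regions (11.7%) against 2.99% of the others. CTATTTATGG followed in 16 regions (5.67% against 1.30%), and both boxes at AT3G43526 have this sequence. Without intervals that have a near-identical copy, C2T made up 53.6% of 250 boxes against 34.3% of 3479. The kind of mismatch was examined after the values were seen and was not tested.

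Exact boxes differed in how often they lay in a region of all mixtures. The genome has 7741 exact boxes, of which 145 (1.87%) were inside the windows of the 510 regions and 950 (12.3%) inside those of other intervals. They fall into 36 sequences when both strands are counted as one, and 22 of these occurred in the 510 regions. The highest shares were those of CCATATATGG with 10 of 128 (7.81%), CCAAATAAGG with 17 of 247 (6.88%), CCAAATATGG with 20 of 337 (5.93%) and CCATAAATGG with 13 of 241 (5.39%). Their order rests on small counts and on copied sequence, since one group of 6 near-identical regions holds both CCATATATGG and CCAAATAAGG. In the 437 regions without a near-identical copy, a view added after seeing the data, CCATATATGG had 6 of its 128 boxes (4.69%), CCAAATAAGG 9 (3.64%), CCAAATATGG 18 (5.34%) and CCATAAATGG 11 (4.56%). These are the boxes seen above at AGL19 and AG (CCAAATAAGG) and at AGL18 and SAUR10 (CCAAATATGG). The sequences found in none of the 510 regions included CCTAAAAAGG, with 293 in the genome and 42 in other intervals. Another was CCAATAATGG, with 283 in the genome and 19 in other intervals. With 1.87% of all exact boxes in the regions, few of either would be there at that share, and their absence was not tested.

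The bases beside the box were rich in A and T. Beside the 145 exact boxes of the 510 regions, A or T took 75.9% of the positions adjacent to the box, 80.7% of the next and 84.1% of the third, and fell to 56.6% at the fourth. The 950 exact boxes of the other intervals had 70.5%, 77.8%, 74.7% and 63.5%, highest at the second base rather than the third. Beside boxes in no interval the shares were 62.6%, 61.5%, 63.2% and 63.9%. For the 111 exact boxes in regions without a near-identical copy, the share was 86.9% at the third base and 61.7% at the fourth. The drop at the fourth base was therefore smaller without copied sequence than the 56.6% above. Over all best boxes with at most 1 mismatch, A or T stood at all 3 bases on both sides in 108 of 422 regions (25.6%), against 17.5% in the other intervals (adjusted p = 1.493e-04 in the same exact test, odds ratio 1.62). It was 29.5% in the intervals of 4 lists alone, and the difference from these was not past the threshold (exact test, adjusted p = 0.269).

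**Figure D2:**
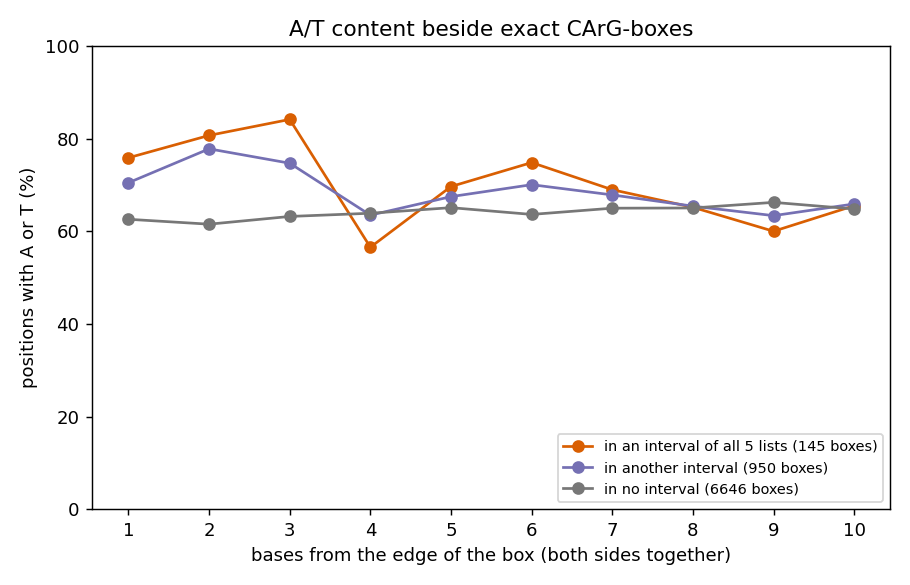
Share of positions with A or T (%) at each distance from exact CArG-boxes, both sides together. Boxes in the regions of all 5 lists reach 84.1% at the third base and drop to 56.6% at the fourth. Without near-identical copies, which is not drawn, the fourth base has 61.7%. Boxes in no interval stay between 61.5% and 66.2% at all 10 positions.

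The summits of the 5 lists lay close together in most regions, which the merging of overlapping peaks favours. The width of the merged regions ran from 263 to 1097 bp around a median of 404 bp. In 502 of them each list had exactly 1 peak. The 5 summits of a region spanned a median of 47 bp (4 to 533 bp). They lay within 20 bp in 64 regions, within 50 bp in 272 and within 100 bp in 418 (82.0%), and they spanned more than 200 bp in 26. The stretch covered by all 5 lists had a median length of 207 bp, and 5 regions had no base in common and were joined by chains of overlaps.

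In each list the summit lay close to the best box. Over the 422 regions with a box of at most 1 mismatch, the median distance from the summit to the centre of the box was 13.5 bp for FUL, 18.5 bp for FUL-SOC1, 18 bp for FUL-AG, 14 bp for FUL-SEP3 and 14 bp for FUL-AG-SEP3. The share within 20 bp ranged from 52.6% in FUL-SOC1 to 60.4% in FUL. The box was searched within a window set by the summits themselves, with ties going to the box nearest its middle, so these distances are short in part by construction.

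**Figure D3:**
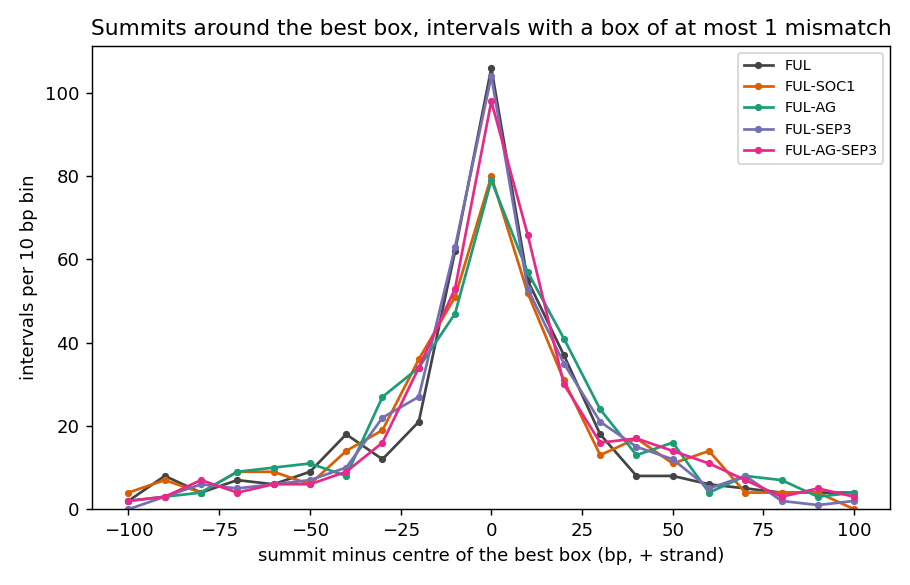
Number of regions per 10 bp bin (y axis) by the distance of each list's summit from the centre of the best box (x axis, bp on the + strand), for the 422 regions with a box of at most 1 mismatch. All 5 curves are highest in the central bin, the median distances are 13.5 to 18.5 bp, and regions with a summit beyond the ends of the axis are not drawn.

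At their median, the regions ranked above the middle of every list. The fold enrichment, the ratio of the pooled signal at the summit to the local background, had a median of 5.40 in FUL (1.83 to 14.7), 3.55 in FUL-SOC1 (1.98 to 6.51), 3.83 in FUL-AG (2.20 to 9.39), 4.14 in FUL-SEP3 (2.23 to 10.6) and 4.24 in FUL-AG-SEP3 (2.24 to 9.70). The other nuclear peaks of these lists had medians of 3.77, 3.01, 3.13, 3.69 and 3.07. Because the depth of each list is unknown, levels are compared below only by the percentile of a peak within its own list, where 100 is the highest. The median percentile of the 510 regions was 78.8 in FUL, 79.4 in FUL-SOC1, 79.4 in FUL-AG, 63.2 in FUL-SEP3 and 88.9 in FUL-AG-SEP3. These percentiles depend on list length, since the regions hold 19.9% of the nuclear peaks of FUL, 10.7% of FUL-SOC1, 18.3% of FUL-AG, 37.1% of FUL-SEP3 and 11.5% of FUL-AG-SEP3.

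**Figure D4:**
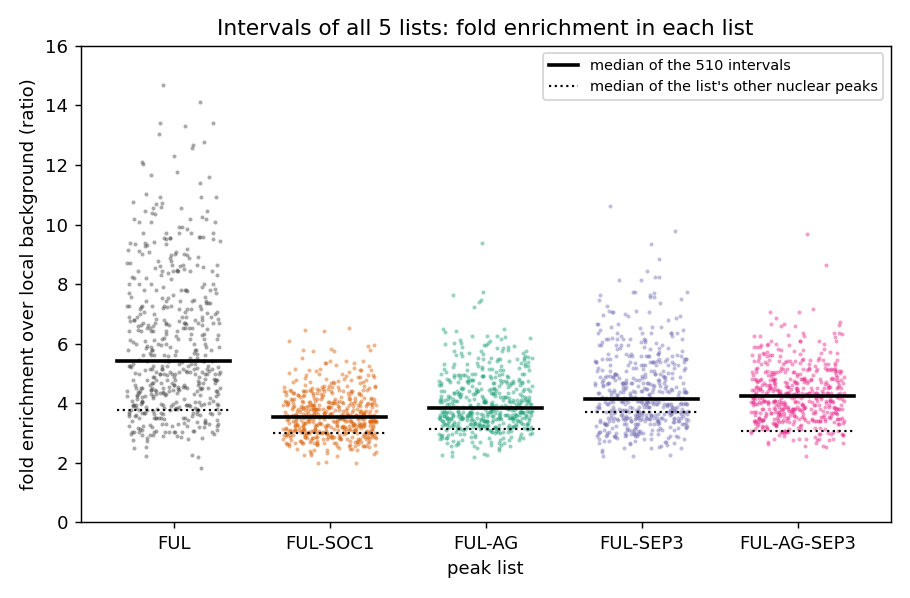
Fold enrichment (ratio over local background) of each of the 510 regions in each list, 1 point per region, horizontally spread at random. Solid lines are the medians of the regions and dotted lines those of the list's other nuclear peaks, 5.40 against 3.77 in FUL and 4.24 against 3.07 in FUL-AG-SEP3.

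Presence in all lists did not mean similar rank in all lists. The gap between the highest and the lowest of the 5 percentiles of a region had a median of 47.7 and ran from 0.0906 to 95.9. It was under 20 in 88 regions and over 50 in 239. The lowest percentile was that of FUL-SEP3 in 187 regions and that of FUL-SOC1 in 142, and the highest was that of FUL-AG-SEP3 in 160. In 21 regions all 5 peaks were among the highest 10% of their list, and in 146 none was. Regions with 2 or more boxes ranked higher than those with none, with median percentiles of 84.4 against 74.9 in FUL, 80.5 against 74.0 in FUL-SOC1, 87.8 against 72.5 in FUL-AG, 74.0 against 59.6 in FUL-SEP3 and 92.5 against 85.0 in FUL-AG-SEP3, given as a description because the same peaks chose the regions. The 5 lists share an input and FUL, and are not independent measurements of a region.

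The 10 regions with the highest lowest percentile were led by the one 152 bp upstream of AT3G43526, a pseudogene on chromosome 3. It spans chr3:15422629-15423105 and had folds of 14.1 in FUL, 6.10 in FUL-SOC1, 7.45 in FUL-AG, 10.6 in FUL-SEP3 and 8.65 in FUL-AG-SEP3, and its lowest percentile, that in FUL-AG, rounded to 99.9. Its near-identical copy upstream of AT3G15602, at chr3:5285804-5286286, had folds of 8.43, 6.51, 7.75, 8.43 and 7.08 in the same order, which is kept from here on. Both carry the same pair of boxes, 57 bp apart, on opposite strands in the sequences printed above. Fold values from repeated sequence depend on how reads were assigned among the copies, which was not tested.

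Among the other 8, the best known gene was GRF5. The region 1814 bp upstream of its start, chr3:4606032-4606524, had folds of 10.9, 4.76, 5.58, 7.65 and 5.89, with percentiles from 98.3 to 99.2. The region 378 bp upstream of AT5G11000, chr5:3480772-3481188, held no box with at most 1 mismatch and yet had folds of 11.7, 4.98, 5.58, 7.05 and 5.14. The absence of the letters from this window says nothing of how the protein was held there. The other 6 lay in an exon of the pseudogene AT1G45140, upstream of the pseudogene AT1G56640, in the 5′ UTR of AT1G22460, at the pseudogenes AT3G43142 and AT3G43144, in a coding exon of SK21 (2248 bp downstream of the nearest start, that of AT3G61410), and upstream of the long non-coding RNA gene AT3G24518.

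At the other end, 3 regions entered with a very weak peak in 1 list. The smallest -log10 q was 1.33, in FUL-SEP3 at chr2:10004525-10004848 near the pseudogene AT2G23490, where the folds were 4.04 in FUL, 3.71 in FUL-SOC1, 4.12 in FUL-AG, 2.28 in FUL-SEP3 and 3.71 in FUL-AG-SEP3. In the other 2, in introns of AT1G39070 and AT5G11700, the FUL-SEP3 peak had a -log10 q of 1.61. The first has 72 near-identical copies in the genome, and the second none. Of the intervals of 4 lists, the 3 with the highest lowest -log10 q, at AT5G32254, AT2G12740 and AT1G42320, lacked a FUL-SOC1 peak and reached 24.7, 24.6 and 18.9. All 3 of these have many near-identical copies in the genome, 27, 38 and 34.

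By gene part, introns were more frequent and coding exons less frequent than among the other intervals. The centre lay in an intergenic stretch in 209 regions, an intron in 138, a coding exon in 60, an exon of a non-coding gene or pseudogene in 39, a 5′ UTR in 36, a 3′ UTR in 25 and an exon of unclear part in 3. Introns took 27.1% (23.4 to 31.1%) against 22.3% of the other intervals (adjusted p = 0.0214 in the same exact test, odds ratio 1.29), and coding exons took 11.8% (9.25 to 14.9%) against 16.2% (odds ratio 0.691, adjusted p = 0.0114). Neither difference was past the threshold against the intervals of 4 lists alone, with 22.6% in introns (exact test, adjusted p = 0.175) and 12.3% in coding exons (adjusted p = 0.857). Intergenic centres (41.0% against 40.2%) and centres within 1 kb upstream of a transcription start (29.4% against 30.1%) did not differ past the threshold (adjusted p = 0.765 for both in the same exact test).

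The gene with the nearest start was protein-coding for 382 regions (74.9%, against 74.8% of the other intervals). It was a pseudogene for 77 (15.1% against 15.5%) and a miRNA gene for 5 (0.980% against 0.832%). The median distance was 999.5 bp, against 994 bp in the other intervals. A near-identical copy elsewhere, with at least 90% identity over 50% of the window, was found for 73 regions (14.3%), and the share was between 14.7% and 15.8% in the classes of 1 to 4 lists. Of these, 64 were copies of one another and formed 17 groups. The largest had 16 regions on all 5 chromosomes, with lowest percentiles from 13.3 to 85.8. Each had a box of at most 1 mismatch, 7 had an exact box, and the boxes differed between regions. The third group had 6 regions, all with an exact box, and lowest percentiles between 1.85 and 30.3. Ranks thus varied within a group, but its regions are similar rather than identical and can differ in the box itself. How reads were assigned among the copies was not tested.

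Of the 37899 annotated genes, 842 (2.22%) had a region of all 5 lists in the gene or within 3 kb upstream of its start. Among 169 developmental genes in 4 lists, which were chosen with results of these data known, 14 did (8.28%). By list these were 6 of 38 MIKC-type MADS-box genes (15.8%), 3 of 40 regulators of flowering time and the floral meristem (7.50%), 3 of 39 carpel, fruit and boundary regulators (7.69%) and 2 of 52 genes of hormone enzymes and auxin response (3.85%). The searched stretch is longer in the MADS-box genes, with a median of 6.79 kb against 4.8 kb over all genes, and the part of length in these counts was not tested. A peak of any list was present at 29 of the 38 MADS-box genes and at 29.9% of all genes.

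**Figure D5:**
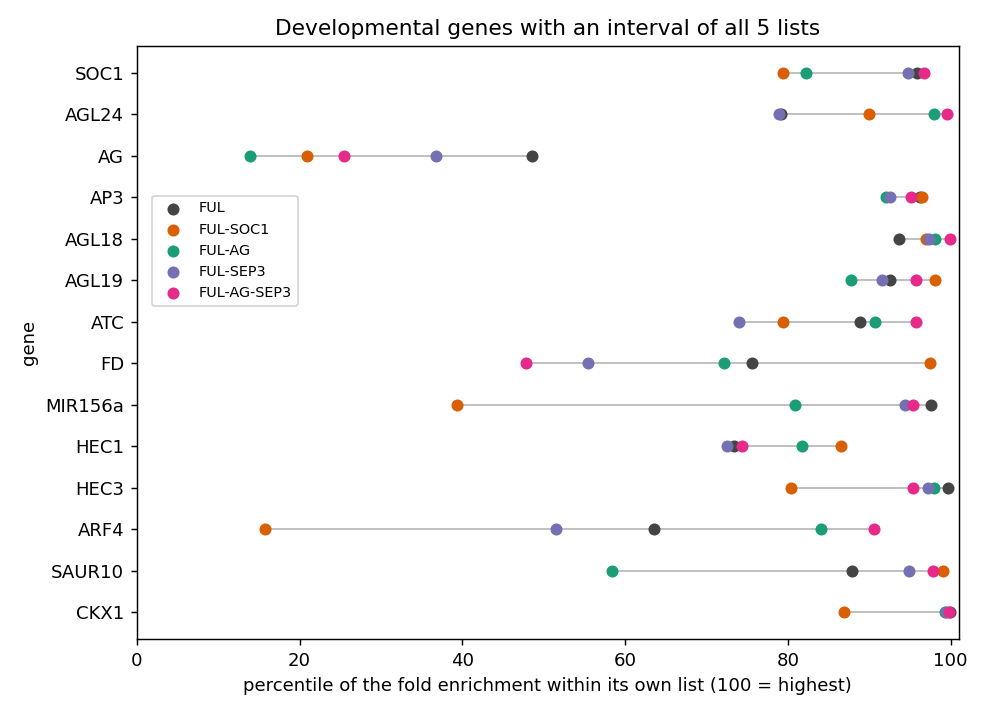
Percentile of the fold enrichment within its own list (x axis, 100 is the highest) for the 14 developmental genes with a region of all 5 lists, 1 point per list and a line from the lowest to the highest. AP3 and AGL18 lie above percentile 92 in all lists, and AG lies below 49 in all. The genes SOC1, MIR156a, HEC3, ARF4 and CKX1 are lowest in FUL-SOC1, whose summit at MIR156a lay apart from those of the other lists.

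Of the MADS-box genes, SOC1 and AG encode partners used in the mixtures. The SOC1 region, chr2:18811010-18811330, had its centre 36 bp upstream of the start of this floral integrator and folds of 8.63 in FUL, 3.55 in FUL-SOC1, 3.93 in FUL-AG, 6.06 in FUL-SEP3 and 5.09 in FUL-AG-SEP3. The AG region, chr4:10386398-10386726, lay in an intron of this gene of stamen and carpel identity and had the low folds of 3.88, 2.67, 2.65, 3.56 and 2.77, with percentiles from 13.9 to 48.5, although its box is exact. FUL itself had peaks of no more than 1 list in an interval, and SEP3 of 3. AP3, which specifies petals and stamens, had a region in its 5′ UTR (chr3:20121044-20121452) with folds of 8.87, 4.40, 4.55, 5.67 and 4.81, and percentiles between 92.0 and 96.5.

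The remaining MADS-box genes act in flowering time. AGL18, a floral repressor, had a region around its 5′ UTR (chr3:21233464-21233823) with folds of 7.81, 4.45, 5.53, 6.66 and 7.16, the last at percentile 99.9. AGL19, a floral activator, had an intronic region (chr4:12026200-12026789) with folds of 7.44, 4.69, 4.20, 5.57 and 4.88. Its summits spanned 145 bp. That of FUL-SOC1 lay at 12026467, and the others lay between 12026604 and 12026612, beside the exact box that starts at 12026611. AGL24, an activator close to SVP, had an intronic region (chr4:12672763-12673213) with folds of 5.42, 3.91, 5.47, 4.68 and 6.26, and no box with at most 1 mismatch. It ranked at percentile 99.5 in FUL-AG-SEP3 and at 79.1 in FUL.

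Among the flowering regulators, ATC, a TFL1 homologue, had a region 1482 bp upstream of its start (chr2:11771488-11771859) with folds of 6.71, 3.55, 4.41, 4.48 and 4.88. FD encodes the bZIP partner of FT, and its region 1829 bp upstream (chr4:17002314-17002705) held no box with at most 1 mismatch. The FD region ranked at percentile 97.4 in FUL-SOC1 and at 47.9 in FUL-AG-SEP3, with folds of 5.15, 4.53, 3.64, 3.96 and 3.12. MIR156a, whose miRNA represses SPL genes, showed the reverse order, with folds of 9.55, 2.92, 3.88, 5.97 and 4.83 in the region 252 bp upstream (chr2:10676612-10677115), at percentile 39.3 in FUL-SOC1 and 95.4 in FUL-AG-SEP3. With 1 list per mixture these differences in rank have no replicate check. The summits at MIR156a spanned 208 bp, because that of FUL-SOC1 lay at 10677017 and the others between 10676809 and 10676845. The FUL-SOC1 rank there is thus that of a summit apart from the others.

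HEC1 and HEC3, bHLH genes of carpel and transmitting tract development, each had a region, whereas HEC2 had no peak in any list. At HEC1 it lay 381 bp upstream (chr5:26765452-26765970) with folds of 5.01, 3.77, 3.93, 4.41 and 3.62. At HEC3 it lay in the 3′ UTR (chr5:3026206-3026640) with folds of 12.7, 3.57, 5.47, 6.65 and 4.83. The HEC3 percentiles were 99.7, 80.4, 97.9, 97.2 and 95.4. ARF4, an auxin response factor, had an intronic region (chr5:24311607-24311975) at percentile 15.8 in FUL-SOC1 and 90.6 in FUL-AG-SEP3, with folds of 4.46, 2.59, 4.04, 3.87 and 4.35.

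Of the hormone genes, CKX1 encodes a cytokinin oxidase that breaks down cytokinin. Its region, chr2:17311498-17311910, had the highest FUL fold of all 510, 14.7, with 3.77 in FUL-SOC1, 6.11 in FUL-AG, 8.14 in FUL-SEP3 and 6.74 in FUL-AG-SEP3. It lay 2691 bp upstream of the start and its summits spanned 11 bp. SAUR10, a small auxin-upregulated RNA gene, had a region 1257 bp upstream (chr2:7832327-7832760) with folds of 6.58, 5.10, 3.36, 6.11 and 5.31, at percentile 99.1 in FUL-SOC1 and 58.4 in FUL-AG. The start nearest to that region is that of AT2G07025, a long non-coding RNA gene.

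In the window, 5 of the 510 regions had 2 exact boxes. Such pairs were not counted in the other intervals. The 5 regions lay near AT1G06917, ZF14, AT4G14900, GalAK and AT3G43760. ZF14 encodes a MATE transporter, and its region beyond the 3′ end of the gene (chr1:21655620-21655940) had folds of 5.25, 3.28, 3.47, 4.29 and 3.93. GalAK encodes galacturonic acid kinase, and its intronic region (chr3:3348578-3349238) had folds of 5.20, 4.06, 5.21, 4.03 and 4.81. At AT4G14900 the 5 summits spanned 516 bp of the widest region (1097 bp). That of FUL-SOC1 lay at 8525322, away from the boxes, and the others between 8524806 and 8524831. At AT3G43760, with 8 near-identical copies in the genome, the percentiles ran from 1.85 in FUL-SEP3 to 92.9 in FUL-SOC1. The ZF14 region has no such copy, and its percentiles ran from 64.4 to 83.5. A pair of exact boxes thus did not go with a high rank in every list.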

How the data were processed

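DAP-seq was measured in 3 replicates of 5 protein mixtures and of the input. The submitters' processing notes name Trim Galore, HISAT2, MACS2, ChIPseeker and the TAIR10 build, without versions. The authors combined the 3 replicates of each mixture and called narrow peaks against the input. The fold enrichment the authors deposited is the ratio of the pooled signal to local background at the summit. The deposited -log10 p and -log10 q are the values of MACS2 at the summit, and every listed q was under 0.05. The number of reads is not in the lists, so the precision of single values is unknown, and all intervals cover counting error over regions only.

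Peaks on the 5 nuclear chromosomes were merged at 1 bp of overlap. Windows of 200 bp were read from TAIR10.1 (RefSeq), whose nuclear chromosomes have the names and lengths of TAIR10, as were gene parts. Boxes were searched once for both strands, since the pattern is its own reverse complement, keeping the best of overlapping matches. Copies were found with BLAST. Shares were compared with two-sided Fisher's exact tests, adjusted over 8 tests (Benjamini-Hochberg). Gene symbols were matched through RefSeq symbols or synonyms, and all 169 matched. The genes and regions named are the 10 with the highest lowest percentile, those of the gene lists, up to 5 with 2 exact boxes, and 3 on each side of the peak threshold. The regions and gene lists were chosen with earlier results of these data known. The steps were tested on simulated data. Peak thresholds, overlap rules, window widths, centres, comparison classes and annotations were varied. Mitochondrial peaks were left out of sequence analyses. The software was BLAST 2.17.0, SciPy 1.17.1, Matplotlib 3.10.9, NumPy 2.4.6 and Python 3.11.15.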

Additional observations from a re-analysis of the deposited data

Results flagged for a closer look

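Outside the nuclear chromosomes, 4 of the 38 intervals merged from mitochondrial peaks had a peak of all 5 lists, with folds between 1.43 and 4.28 over all mitochondrial peaks. They were left out because no mitochondrial sequence was used here.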

How the results depend on the processing

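No paired analysis was possible because each list was made from 3 replicates combined, and for the same reason no replicate could be left out. Of 74 alternatives over the 9 results, 64 kept the direction and the side of the threshold, or a similar count. The excess of exact boxes ranged from 6.23 to 17.5 percentage points over 9 alternatives, that of boxes with at most 1 mismatch from 7.26 to 20.3, and that of 2 or more boxes from 10.1 to 20.5, all past the threshold.

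Against intervals of 4 lists alone, the difference was -3.91 points for A/T flanks, -3.56 for intergenic centres, -0.492 for coding exons (adjusted p = 0.857 in the exact test) and 4.49 for introns (adjusted p = 0.175). Among intervals with a peak at or above percentile 75 in at least 1 list, intergenic centres differed by -1.37 points and coding exons by -2.42 (exact test, adjusted p = 0.259). With protein-coding genes only, the intergenic difference was -0.855. In windows with 60 to 70% A or T, chosen after seeing the data, the difference was -2.36 for coding exons (exact test, adjusted p = 0.305) and 3.40 for introns (adjusted p = 0.281). Without intervals that have a copy, also added later, no call changed. The number of regions was 214 when the strongest 1379 peaks of each list were used, the length of the shortest list, and 418 to 508 under the other alternatives. The cause of the shifts against 4 lists was not tested. The unknown depth of the lists limits what the absence of a peak in a list can show.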
